A study of Drosophila melanogaster with 2 samples.

Results

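The 10 genes of the Drosophila tracheal system followed here across the nuclei of whole embryos are 10 of the 17039 genes in the deposited table. They were listed by name as 5 regulators and 5 products of the tube lumen and apical surface. The regulators were trh, btl, vvl, knrl and dysf (dysfusion), and the products were verm, serp, Gasp, pio and uif. The gene requested as dys was read as dysfusion, which carries dys as an older symbol in the reference table. Dys in the table is dystrophin (524 UMIs) and Trh is tryptophan hydroxylase (8 UMIs). Both are other genes and were not used. The question was whether the regulators and the luminal products share nuclei, and whether they separate from the cuticle protein genes of the epidermis.

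The tracheal system is a branched network of epithelial tubes that carries air to the tissues of the fly. Its fate is set by the transcription factor trachealess (trh), and its branches migrate towards a fibroblast growth factor sensed by the receptor breathless (btl). As the tubes mature, their cells secrete a chitin matrix with chitin-modifying and chitin-binding proteins into the lumen. Cuticle is made at the same epithelium and over the whole epidermis, so several luminal genes are also transcribed in other ectodermal cells.

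The material was nuclei of Drosophila melanogaster embryos labelled 0 to 24 h old, from an unstated number of embryos. The labels name no genotype, strain or treatment and no second condition. The nuclei were crosslinked, cut with restriction enzymes, ligated and barcoded on a 10x Genomics platform, and 1 RNA library was analysed. The accessibility and interactome library made from such nuclei was not analysed here.

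The library held 2233526 UMIs (unique molecular identifiers, each standing for 1 captured transcript molecule) in 318 nuclei, with a median of 2969 UMIs per nucleus and a range of 279 to 123309. With 1 library there was no replicate, nuclei are not replicates of a condition, and no p-value was computed. Levels are given as CPM, the UMIs of a gene in 1000000 UMIs of the nuclei summed. All intervals are exact 95% intervals (Poisson for CPM, conditional binomial for ratios, Clopper-Pearson for shares). They cover counting error only, not variation between nuclei or embryos. CPM is not scaled to gene length, so levels were compared between nuclei and not between genes. Embryo age was not recorded per nucleus, so differences between cell types and between ages cannot be told apart.

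The 10 members together held 3970 UMIs, 1777 CPM. The regulators summed to 803 CPM (95% interval 766 to 841) and the luminal genes to 975 CPM (934 to 1017).

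Among the regulators, trh, the bHLH-PAS factor that starts tracheal fate, had 121 UMIs in 62 nuclei (19.5%), or 54.2 CPM (45.0 to 64.7). The FGF receptor btl had 22 UMIs in 17 nuclei (5.35%) and never more than 2 in a nucleus. The POU-domain factor vvl, which is also used widely in the nervous system, had 1536 UMIs in 197 nuclei and up to 98 in one of them. It made up most of the regulator sum, so that sum is mainly a measure of vvl. The nuclear receptor-like factor knrl, a relative of knirps, had 111 UMIs in 55 nuclei (17.3%). The fusion-cell factor dysf had 3 UMIs, each in another nucleus, and was the only member under the minimum of 20 UMIs used for counts of genes past a fold. Its distribution could not be read at this depth. The sum of trh, btl and dysf, which leaves out vvl and knrl, was 146 UMIs in 67 nuclei, or 65.4 CPM (55.2 to 76.9).

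Among the luminal products, 4 were present in 120 nuclei or more, though none in as many as vvl. The chitin deacetylases verm and serp had 608 UMIs in 143 nuclei (45.0%) and 554 UMIs in 129 nuclei (40.6%). Both are secreted into the lumen, and they are direct neighbours in the reference annotation (Release 6) with 0 genes between them. Gasp, a chitin-binding protein of the lumen, had 527 UMIs in 140 nuclei (44.03%). The zona pellucida-domain protein pio, part of the apical matrix, had 149 UMIs in 67 nuclei (21.1%). The large apical membrane protein uif had 339 UMIs in 120 nuclei (37.7%). At least 1 UMI of the 5 luminal genes was present in 229 nuclei (72.0%).

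Presence of a UMI followed depth. Nuclei with a btl UMI had a median of 10198 UMIs, against 2820 UMIs in nuclei without one, and nuclei with a verm UMI had a median of 7061 UMIs, against 1785 UMIs. Each of the 270 nuclei with 1000 UMIs or more was therefore also thinned to 1000 UMIs, which left out 48 shallower nuclei. After thinning, a trh UMI was present in 13 nuclei, btl in 2, vvl in 102, knrl in 16 and dysf in none, while verm was present in 50, serp in 54, Gasp in 49, pio in 16 and uif in 37. Free RNA in droplets can also give UMIs to nuclei that do not make a transcript, and its part here was not tested. In the muscle-like nuclei described further on, where luminal genes are not known to act, 24 of 37 nuclei (64.9%) had a luminal UMI at a median depth of 3759 UMIs, against 43 of 45 epidermis-like nuclei (95.6%) at a median depth of 7064 UMIs. Thinned to equal depth, the shares were 15 of 33 muscle-like nuclei (45.5%) and 30 of 44 epidermis-like nuclei (68.2%). A single luminal UMI was common in both clusters and was not taken to mark a nucleus, and the comparisons below rest on summed levels.

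Within the luminal group, verm and serp shared nuclei most clearly. Both were present in 99 nuclei. The level of serp was 291 CPM in verm-bearing nuclei and 92.0 CPM in nuclei without verm, a ratio of 3.16 (2.32 to 4.40). At equal depth the levels were 640 CPM in verm-bearing nuclei and 182 CPM in the others, a ratio of 3.52 (2.14 to 5.75). The Pearson r of their log levels (the natural log of 1 plus UMIs in 10000) was 0.549 over all 318 nuclei and 0.685 over the 158 nuclei with at least 3000 UMIs. These nuclei share 1 library, so r is given as a description. How reads of related genes were assigned is not stated. The apical protein uif followed both, with r of 0.505 to verm and 0.477 to serp over the deeper nuclei. Gasp and pio did not move together, with r of -0.03 over the same nuclei.

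**Figure D1:**
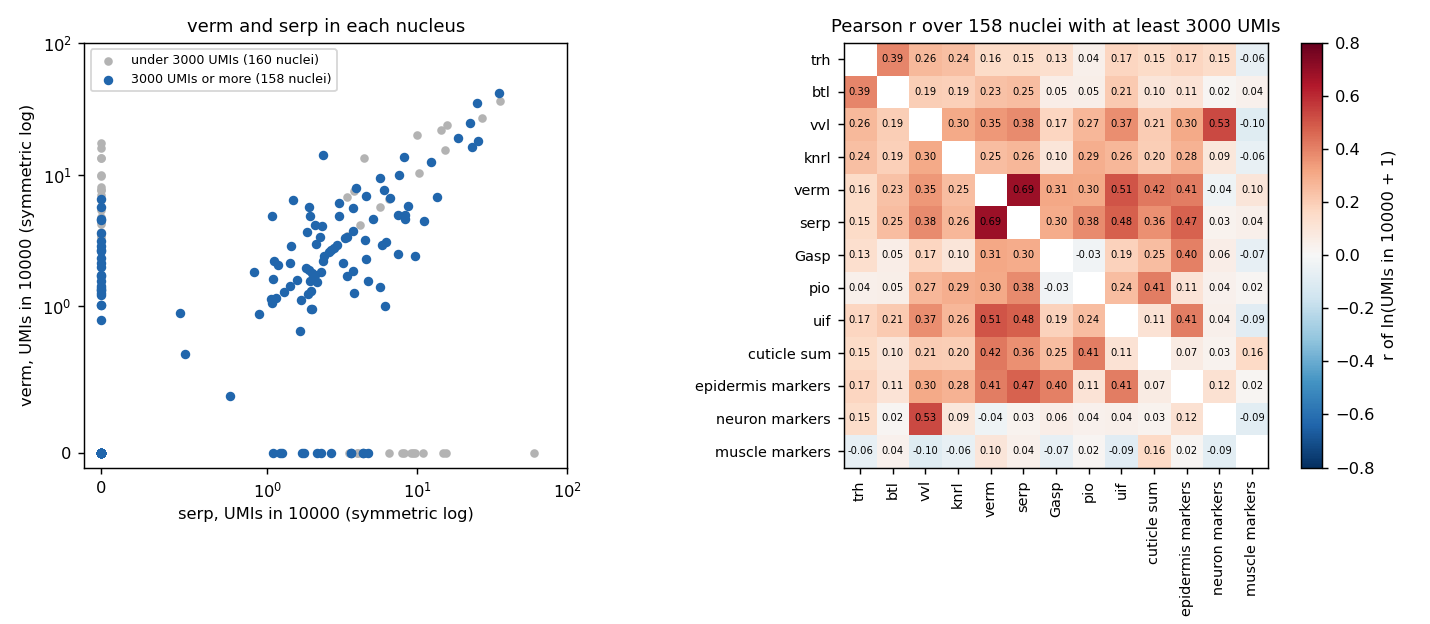
Left, verm against serp in each nucleus, in UMIs per 10000 on symmetric log axes, with deeper nuclei in blue and shallower ones in grey. Right, Pearson r of log levels over the 158 deeper nuclei for 9 members, the cuticle sum and 3 marker sums; verm and serp stand out at 0.69, followed by vvl with neuron markers at 0.53 and verm with uif at 0.51.

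Among the regulators, btl was found mostly with trh. Of the 17 nuclei with a btl UMI, 13 also held trh (76.5%), against 16.3% of the nuclei without btl. The level of btl was 18.1 CPM in trh-bearing nuclei and 3.22 CPM in the others, a ratio of 5.62 (1.85 to 22.8), which rests on 18 UMIs against 4 UMIs. After thinning only 2 btl UMIs remained, neither in a trh-bearing nucleus, so this ratio could not be checked at equal depth. Between the nuclear receptor gene knrl and the matrix gene pio, knrl was at 69.6 CPM in pio-bearing nuclei and 32.1 CPM in the others, a ratio of 2.17 (1.45 to 3.30).

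Regulators and luminal genes were linked less closely than verm and serp. All 17 btl-bearing nuclei held both a verm and a serp UMI. The level of verm was nevertheless 295 CPM in btl-bearing nuclei and 268 CPM in the others, a ratio of 1.10 (0.888 to 1.36). The level of serp was 252 CPM in btl-bearing nuclei and 247 CPM in the others, a ratio of 1.02 (0.806 to 1.28). For trh-bearing nuclei against the others the ratio was 1.20 (1.02 to 1.41) for verm, 1.04 (0.879 to 1.24) for serp and 1.27 (1.07 to 1.52) for Gasp. The full co-occurrence of btl with verm and serp thus came without a higher level, in nuclei that were deeper than the rest. Over the 81 ordered pairs of members tried, 8 had a ratio above 2-fold after adding 10 CPM, and 41 had an interval above 1. The pairs share nuclei and are not independent of each other.

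A second comparison used nuclei rich in one group of genes. A nucleus was called rich when the group's share of its UMIs was at least 3 times the library's share and it held at least 3 UMIs of the group. By this rule 24 nuclei were regulator-rich, 20 luminal-rich and 22 rich in cuticle protein genes, and 11 were rich in trh, btl and dysf alone. The cuticle list held 121 genes named by symbol, with 22305 UMIs (0.999% of the library). Its leading genes were Lcp65Ag2 (3658 UMIs), Lcp65Ag3 (2671 UMIs), Lcp65Ag1 (2403 UMIs) and Cpr47Eg (1641 UMIs), which encode structural cuticle proteins. The Lcp65Ag genes are close copies, so their separate counts are uncertain. The values that chose a set are a description of it. Just inside and just outside the limit, the luminal share was 3.39 and 2.91 times the library's, the regulator share 3.30 and 2.90 times, and the cuticle share 3.10 and 2.96 times.

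In the 24 regulator-rich nuclei the luminal genes summed to 2499 CPM, against 936 CPM in all other nuclei, a ratio of 2.67 (2.23 to 3.17). By gene, verm was at 869 CPM against 257 CPM, serp at 688 CPM against 237 CPM, pio at 235 CPM against 62.4 CPM and uif at 507 CPM against 143 CPM in the other nuclei. Gasp was the exception, at 199 CPM in regulator-rich nuclei and 237 CPM in the others, a ratio of 0.841 (0.417 to 1.52). After adding 10 CPM, 4 of the 5 luminal genes were over 2-fold higher, beside 8.29% of the 7983 genes with at least 20 UMIs. A single nucleus weighed heavily. It had 6002 UMIs, the most of its set, and 25 of the 48 verm UMIs and 21 of the 38 serp UMIs. Without the deepest nucleus of each side the ratio of the luminal sum was 1.84, that of verm 1.76 and that of serp 1.41. In the 11 nuclei rich in trh, btl and dysf the luminal sum was 1705 CPM, against 944 CPM in all other nuclei, a ratio of 1.81 (1.52 to 2.13). There Gasp was the highest of the 5 by ratio, at 481 CPM against 225 CPM in the others, or 2.13 (1.53 to 2.91). Beside this ratio, 5.79% of genes were over 2-fold higher in that set.

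In the 20 luminal-rich nuclei the regulators summed to 1484 CPM, against 773 CPM in all other nuclei, a ratio of 1.92 (1.60 to 2.28). Most of this was vvl, at 1290 CPM against 662 CPM, a ratio of 1.95 (1.61 to 2.35). For trh the level was 96.8 CPM in luminal-rich nuclei and 52.3 CPM in the others, a ratio of 1.85 whose interval, 0.824 to 3.64, included 1. For btl there were 3 UMIs against 19 UMIs and for knrl 6 UMIs against 105 UMIs, with intervals of the ratio that also included 1. After adding 10 CPM, btl was the 1 regulator over 2-fold higher, beside 6.49% of all genes, and it rested on those 3 UMIs. In the overlap of the sets, 3 nuclei were both regulator-rich and luminal-rich. They made up 12.5% of the regulator-rich nuclei, where 6.29% of all nuclei were luminal-rich, and 15% of the luminal-rich nuclei, where 7.55% of all nuclei were regulator-rich. Epidermis markers moved with the luminal-rich set, 11 of 16 over 2-fold higher and 0 lower, at 17041 CPM summed against 2928 CPM in the others and at 0 to 73294 CPM in single nuclei against 0 to 36655 CPM. Of the 5 hemocyte markers with at least 20 UMIs, 3 were over 2-fold higher. Their part in the result was not tested.

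**Figure D2:**
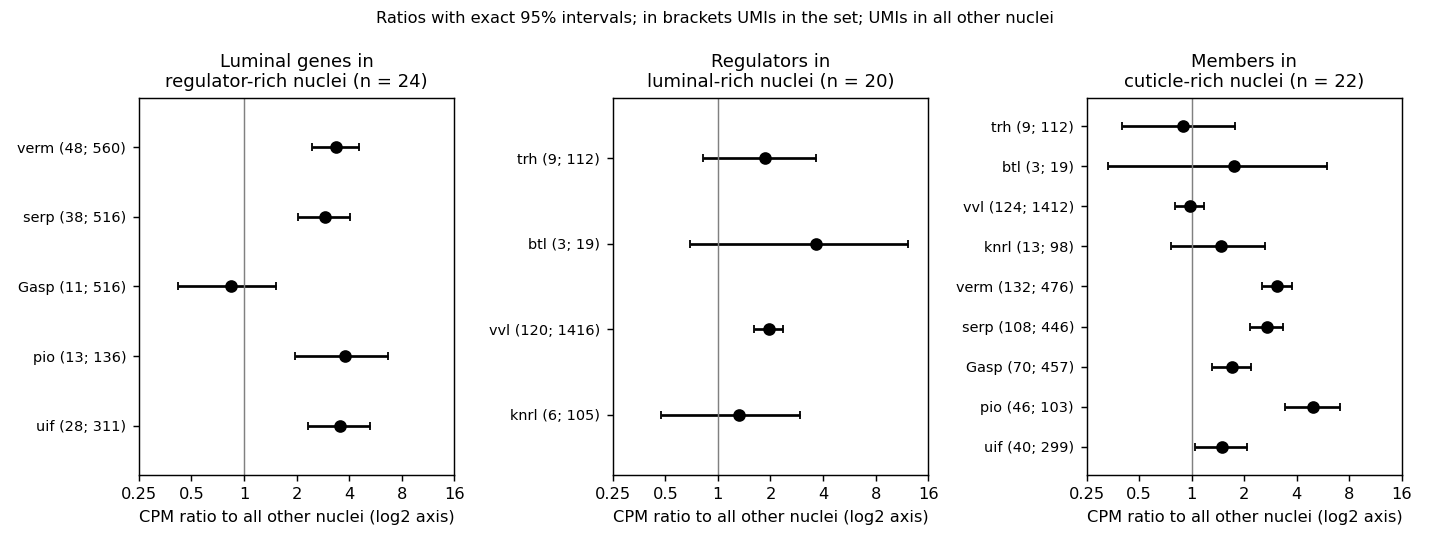
Ratio of CPM in a set of rich nuclei to CPM in all other nuclei, on a log2 axis, for members that did not choose the set (left and middle) and for all members but dysf in cuticle-rich nuclei (right); points are ratios and bars exact 95% intervals for counting error. Luminal genes other than Gasp are higher in regulator-rich nuclei, of the regulators vvl alone has an interval above 1 in luminal-rich nuclei, and in cuticle-rich nuclei the 5 luminal genes are higher while vvl and trh are near 1.

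Luminal-rich and cuticle-rich nuclei overlapped in part. Of the 20 luminal-rich nuclei, 10 were also cuticle-rich (50% of the luminal-rich and 45.5% of the cuticle-rich nuclei), where 6.92% of all nuclei were cuticle-rich. The cuticle genes summed to 58605 CPM in luminal-rich nuclei and 7874 CPM in all other nuclei. A single luminal-rich nucleus, of 18209 UMIs, held 3090 cuticle UMIs, and no other luminal-rich nucleus held more than 755. In the 22 cuticle-rich nuclei the luminal sum was 2146 CPM, against 869 CPM in all other nuclei, a ratio of 2.47 (2.21 to 2.75). The largest ratio was that of pio, at 249 CPM against 50.3 CPM, or 4.96 (3.42 to 7.09). The ratio was 3.08 for verm, 2.69 for serp, 1.70 for Gasp and 1.49 for uif, each with an interval above 1. After adding 10 CPM, 3 of the 5 luminal genes were over 2-fold higher, beside 4.43% of all genes. Of the 16 epidermis markers, 13 were over 2-fold lower and 1 higher in cuticle-rich nuclei. They summed to 1247 CPM against 3720 CPM in the others, at 0 to 3478 CPM in single nuclei against 0 to 73294 CPM, with m at 0. Their part in the result was not tested.

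Among the regulators, vvl and trh were near the level of the other nuclei where cuticle was high. The regulator sum was 818 CPM in cuticle-rich nuclei and 801 CPM in all other nuclei, a ratio of 1.02 (0.859 to 1.21). The ratio was 0.975 (0.805 to 1.17) for vvl and 0.892 (0.398 to 1.76) for trh. It was 1.47 (0.758 to 2.64) for knrl, from 13 UMIs, and 1.75 (0.332 to 5.96) for btl, from 3 UMIs. None of the 4 regulators with at least 20 UMIs was over 2-fold higher. Of the 3 dysf UMIs, 2 were in cuticle-rich nuclei, which held 8.26% of all UMIs, and 1 of these was in the deepest of them. A placement from so few UMIs could not be read. The deepest cuticle-rich nucleus held 41.5% of the set's UMIs, and without the deepest nucleus of each side the regulator ratio was 1.28.

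In the other direction, the cuticle sum pooled over each regulator set was higher than in the other nuclei, with much of it in 2 nuclei of each. In the 24 regulator-rich nuclei the cuticle sum was 17272 CPM, against 9802 CPM in all other nuclei, a ratio of 1.76 (1.65 to 1.88). The 2 of them that were cuticle-rich held 371 and 286 cuticle UMIs, and no other held more than 58. Of those others, 2 were at 23172 and 27672 CPM. All the rest were at 1642 to 7398 CPM, below the 9802 CPM, so the higher sum did not describe most regulator-rich nuclei. In the 11 nuclei rich in trh, btl and dysf it was 25168 CPM against 9338 CPM, a ratio of 2.70 (2.58 to 2.81), which was above the 1.81 of the luminal sum in the same nuclei. There Cpr47Eg was at 3508 CPM against 616 CPM in the others, a ratio of 5.69 (5.02 to 6.44). Of these 11 nuclei, 2 were cuticle-rich (18.2%), where 6.92% of all nuclei were. Those 2 held 983 and 679 cuticle UMIs, and no other of the 11 held more than 243. The nuclei of the 11 that were not cuticle-rich ranged from 3092 to 27902 CPM, on both sides of the 9338 CPM. Ratios without the cuticle-rich nuclei were not computed for either set.

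Of the 20 luminal-rich nuclei, 10 were luminal-rich only and 10 were rich in both luminal and cuticle genes. They came from different clusters, described further on. Of the luminal-rich-only nuclei 4 were in the epidermis-like cluster 3, 2 in cluster 2 and 2 in cluster 9, while 8 of the nuclei rich in both were in cluster 2 and 0 in cluster 3. In the luminal-rich-only nuclei trh had 8 UMIs and btl 3 UMIs, against 1 UMI and 0 UMIs in the nuclei rich in both. Together with dysf these genes were at 274 CPM in luminal-rich-only nuclei and 18.9 CPM in nuclei rich in both. The 11 UMIs came from 3 nuclei. One of 3180 UMIs had 4 trh, 2 btl, 14 vvl, 11 verm and 8 serp UMIs with 20 cuticle UMIs. One of 4530 UMIs had 3 trh, 1 btl, 5 vvl and 12 Gasp UMIs with 17 cuticle UMIs. The third, of 6002 UMIs, had 1 trh UMI beside 25 verm and 21 serp UMIs. The other 7 luminal-rich-only nuclei had no UMI of trh, btl or dysf.

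In the same comparison vvl was at 1716 CPM in luminal-rich-only nuclei and 966 CPM in nuclei rich in both, a ratio of 1.78 (1.219 to 2.603). The apical protein uif was at 846 CPM against 303 CPM, a ratio of 2.79 (1.499 to 5.413). The matrix gene pio had 1 UMI in luminal-rich-only nuclei, against 22 UMIs in 8 of the 10 nuclei rich in both, a ratio of 0.0597 (0.00145 to 0.369). The deacetylases differed less. For verm the level was 1815 CPM in luminal-rich-only nuclei and 1705 CPM in nuclei rich in both, and for serp it was 2014 CPM against 1534 CPM, both with intervals that included 1. Both kinds were cut from the same nuclei by their cuticle share, which trh, btl, vvl, pio and uif did not enter, but luminal genes did set membership of both. Beside these members, 24.4% of all genes were over 2-fold higher and 24.6% over 2-fold lower in luminal-rich-only nuclei, as sets of 10 nuclei differ at many genes. Of the 16 epidermis markers, 14 were over 2-fold higher and 1 lower, at 37872 CPM summed in luminal-rich-only nuclei and 1174 CPM in nuclei rich in both. Single nuclei were at 2903 to 73294 CPM and at 0 to 2904 CPM, and sha, m, dyl, nyo, Osi18 and mwh were at 0 in nuclei rich in both. Of the 5 hemocyte markers with at least 20 UMIs, 3 were over 2-fold lower, at 945 CPM summed in luminal-rich-only nuclei and 5341 CPM in nuclei rich in both. The part of these markers in the member levels was not tested.

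Set against the 12 nuclei that were cuticle-rich only, the luminal-rich-only nuclei had the regulators higher. Their sum was 2089 CPM in luminal-rich-only nuclei and 736 CPM in cuticle-rich-only nuclei, a ratio of 2.84 (2.09 to 3.84). For vvl it was 1716 CPM against 554 CPM, a ratio of 3.10 (2.19 to 4.36). For trh, btl and dysf it was 274 CPM against 98.7 CPM, a ratio of 2.77 (1.12 to 6.70) from 11 UMIs against 13 UMIs. Without the deepest nucleus of each side this last ratio was 2.37 (0.892 to 6.47). The deepest cuticle-rich-only nucleus, of 76485 UMIs, held 58.1% of that set's UMIs. It held 41 regulator UMIs, 36 of them vvl, and no other nucleus of the set held more than 24 regulator UMIs. The reference levels of this set are thus largely those of 1 nucleus. The matrix gene pio ran the other way, at 24.9 CPM in luminal-rich-only nuclei and 182 CPM in cuticle-rich-only nuclei, although it belongs to the sum that chose the luminal-rich nuclei. Here 14.7% of all genes were over 2-fold higher and 29% over 2-fold lower. In each of these comparisons the sets are small and were chosen by sums over few genes.

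Markers of the epidermis moved with this contrast. Of the 16 markers, 15 were over 2-fold higher in luminal-rich-only nuclei than in cuticle-rich-only nuclei. The list holds the Osi genes and the hair genes sha and m, among others. Their sum was 37872 CPM in luminal-rich-only nuclei and 1276 CPM in cuticle-rich-only nuclei, with single nuclei between 2903 and 73294 CPM and between 0 and 3478 CPM. One luminal-rich-only nucleus of 11720 UMIs held 859 of the set's 1523 marker UMIs. Without the deepest nucleus of each side the ratio was 11.4. The markers m and f were at 0 in cuticle-rich-only nuclei. Muscle markers were lower, 10 of 12 by over 2-fold. The deepest cuticle-rich-only nucleus, of 76485 UMIs, held 1351 muscle marker UMIs, and no other nucleus of that set held more than 237. The part of these markers in the regulator levels was not tested.

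**Figure D3:**
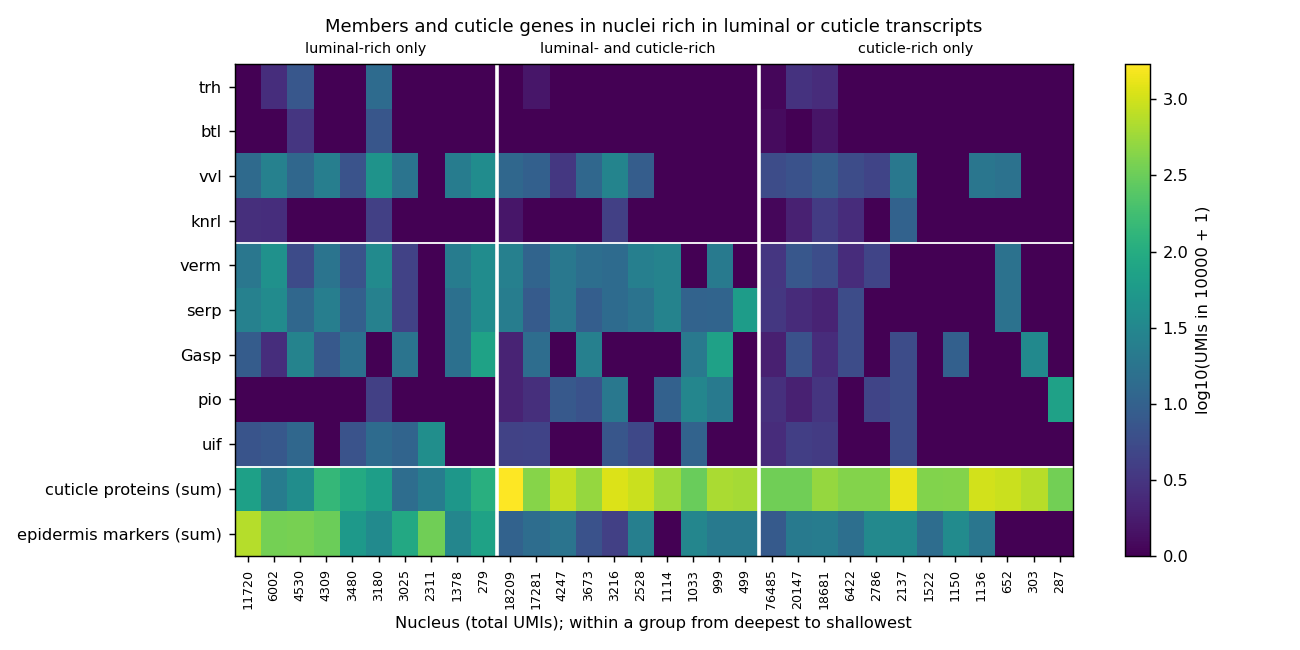
Level of 9 members, the cuticle sum and the epidermis marker sum in each nucleus that was luminal-rich only, rich in both, or cuticle-rich only, as log10 of UMIs in 10000 plus 1; columns are nuclei with their total UMIs, from deepest to shallowest within a set. UMIs of pio are in 1 of the 10 luminal-rich-only nuclei and in 8 of the 10 nuclei rich in both, trh and btl are in few nuclei, and epidermis markers are highest in the luminal-rich-only nuclei.

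Clusters gave a view of the same genes that did not use them. The members, 32 other tracheal genes and the cuticle genes were left out of the variable genes, and 10 clusters were found. A cluster was named from marker lists as epidermis-like, neuron-like, muscle-like or salivary gland-like, and otherwise kept its number. No tracheal marker list was used, since the members are the subject. The leading genes of a cluster were also listed without the members, so they could not show a member. No cluster is therefore called tracheal.

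The luminal sum was highest in cluster 2, an unnamed cluster of 32 nuclei led by CG11584, CG15212, CG32564, CG15213 and CG17290. It was 2028 CPM there, against 859 CPM in all other nuclei, a ratio of 2.36 (2.12 to 2.62). The ratio was 4.61 for pio, 2.81 for verm and 2.45 for serp. The cuticle sum was 47845 CPM in cluster 2 and 5842 CPM in the others, and 19 of the 22 cuticle-rich nuclei and 10 of the 20 luminal-rich nuclei belonged to it. The sum of trh, btl and dysf was 109 CPM against 60.6 CPM, a ratio of 1.80 (1.11 to 2.80), from 7 of its nuclei.

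The 45 epidermis-like nuclei, with 11 of 16 epidermis markers over 2-fold higher, had a higher luminal sum and a lower cuticle sum than all other nuclei. The luminal sum was 1352 CPM against 875 CPM in the other nuclei, a ratio of 1.55 (1.41 to 1.70), led by uif at 248 CPM against 126 CPM. The cuticle sum was 6285 CPM in epidermis-like nuclei and 10966 CPM in the others. Those others included cluster 2, where the cuticle sum was by far the highest, so cuticle was not shown to be low against the remaining clusters. The sum of trh, btl and dysf was 62.0 CPM in epidermis-like nuclei and 66.3 CPM in the others, a ratio of 0.936 (0.601 to 1.42).

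The highest ratio for trh was in cluster 9, an unnamed cluster of 18 nuclei in which 11 held a trh UMI. Its level was 118 CPM in cluster 9 and 46.6 CPM in all other nuclei, a ratio of 2.53 (1.60 to 3.90), with at most 4 of the 28 UMIs in 1 nucleus. In the same cluster Gasp was at 451 CPM against 210 CPM, a ratio of 2.14 (1.71 to 2.65), and knrl at 96.8 CPM against 44.1 CPM, a ratio of 2.20 (1.32 to 3.51). The deacetylases were less raised, at ratios of 1.44 for verm and 1.30 for serp, and pio was at 0.941. The cuticle sum was 10131 CPM in cluster 9 and 9969 CPM in the others. Those others included cluster 2, where the cuticle sum was by far the highest, and a ratio without cluster 2 was not computed. Thinned to equal depth, 4 trh UMIs were left, in 3 of its 17 nuclei.

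The regulator sum was highest in a neuron-like cluster of 25 nuclei led by CG31221, para, pHCl-1, igl and tau, at 1237 CPM against 771 CPM in all other nuclei. This was vvl, at 1133 CPM against 655 CPM, a ratio of 1.73 (1.47 to 2.03). Over the 158 deeper nuclei the r of vvl to the summed neuron markers was 0.526. The luminal sum was lower there, at 484 CPM in the neuron-like cluster and 1011 CPM in the others. Thinned to equal depth, the regulator sum of this neuron-like cluster was 588 CPM, from 10 UMIs in 17 nuclei. At that depth it was highest in cluster 2, at 1692 CPM. With the other clustering settings tried, the regulator sum was highest in an epidermis-like or a hemocyte-like cluster. Muscle-like nuclei had the lowest ratio for trh among clusters, at 9.63 CPM against 64.4 CPM in all other nuclei, or 0.150 (0.0401 to 0.394).

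**Figure D4:**
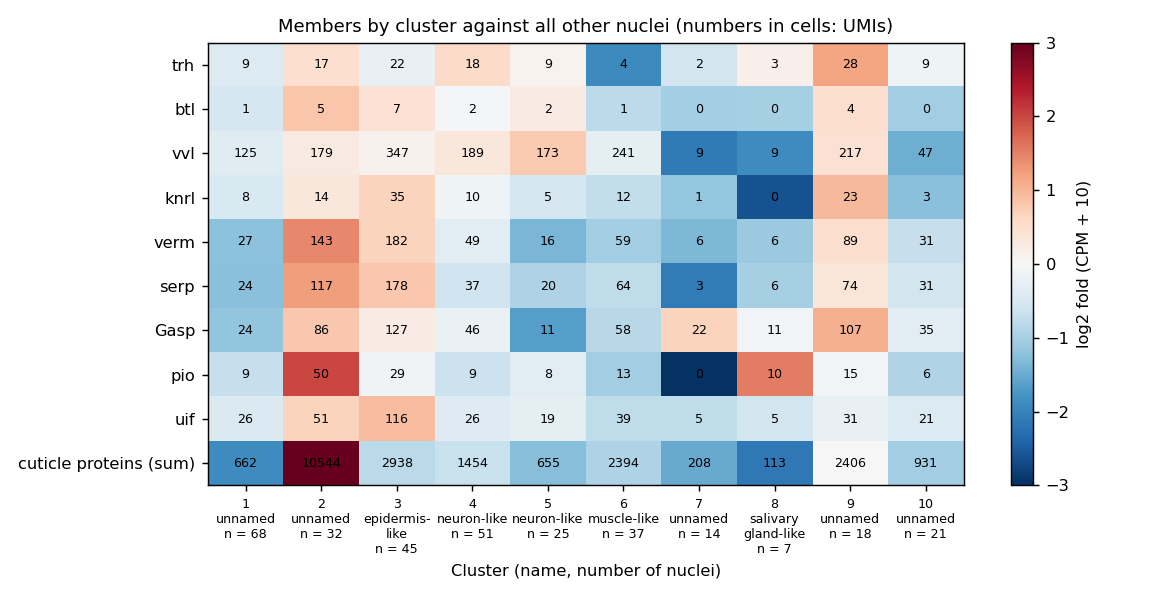
Members and the cuticle sum in each of 10 clusters against all other nuclei, as log2 ratio of CPM + 10 in colour, with UMIs printed in the cells. The luminal genes and cuticle are high in cluster 2, trh, knrl and Gasp in cluster 9, and vvl in the second neuron-like cluster.

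The 32 other tracheal genes were followed in the same sets. In luminal-rich-only nuclei, 11 of the 32 were over 2-fold higher and 1 lower than in all other nuclei, beside 8.08% and 40.8% of all genes. Their median log2 ratio was 0.65, against -0.57 over all genes tested. Several of them act in chitin assembly. The chitin synthase kkv was at 547 CPM against 59.7 CPM, a ratio of 9.16 (5.55 to 14.5), and the chitin-organising gene knk was at 149 CPM against 28.7 CPM. The chitin-deposition gene exp was at 199 CPM against 38.3 CPM, and the chitin-binding obst-A at 572 CPM against 127 CPM. The gene ect had the largest ratio, at 2735 CPM against 192 CPM, or 14.2 (11.4 to 17.6). In the FGF pathway the adaptor stumps was at 224 CPM in luminal-rich-only nuclei and 65.2 CPM in the others, a ratio of 3.43 (1.54 to 6.70) from 9 UMIs. The FGF ligand gene bnl, made by cells outside the trachea, had 0 UMIs there and 193 UMIs in the other nuclei. The interval of its ratio, 0 to 1.05, included 1, so its absence could not be read in so small a set. The epithelial factors CrebA, a regulator of secretory genes, and grh, a regulator of cuticle and barrier genes, had ratios of 2.85 and 2.34. In the same contrast 13 of 16 epidermis markers were over 2-fold higher and 0 lower. They summed to 37872 CPM in luminal-rich-only nuclei and 2886 CPM in the others, at 2903 to 73294 CPM in single nuclei against 0 to 36655 CPM, with none of them at 0. Their part in these ratios was not tested.

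In all 20 luminal-rich nuclei 10 of the 32 genes were over 2-fold higher and 0 lower than in all other nuclei, beside 6.49% and 25.7% of all genes. In the 10 nuclei rich in both luminal and cuticle genes 7 were over 2-fold higher and 5 lower, beside 6.88% and 36.8% of all genes. Hemocyte and basement membrane markers were higher in that set, 3 of the 5 with at least 20 UMIs by over 2-fold, at 5341 CPM summed against 1369 CPM in the others. Single nuclei were at 0 to 13455 CPM against 0 to 14952 CPM, with eater, Hml and lz at 0 in the set, and the part of these markers was not tested. In the 12 cuticle-rich-only nuclei 1 of the 32 genes was over 2-fold higher and 6 lower, beside 4.11% and 18.5% of all genes.

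In cuticle-rich nuclei 5 of the 32 genes were over 2-fold higher and 4 lower than in all other nuclei, beside 4.43% and 15% of all genes. The genes that were higher were reb, at 81.3 CPM against 9.27 CPM, exp, dpy, mmy and obst-A. Of these exp and reb act in chitin deposition, mmy makes the chitin precursor, and dpy encodes a giant protein of the apical matrix. The lower ones were kni, dnd, CrebA and ect. Of these kni rested on 2 UMIs and dnd on 0 UMIs, with intervals of the ratio that included 1. The ratio of kkv was 1.21 (0.658 to 2.06). In regulator-rich nuclei 14 of the 32 were over 2-fold higher and 2 lower, beside 8.29% and 26.6% of all genes, with exp at 181 CPM against 37.6 CPM and grh at 887 CPM against 290 CPM in the others. All 12 muscle markers were over 2-fold lower in regulator-rich nuclei, 6 of 16 epidermis markers were higher and 4 lower, and 2 of 12 neuron markers were higher and 0 lower. The single nuclei ranged between 0 and 36655 CPM of epidermis markers in regulator-rich nuclei and between 0 and 73294 CPM in the others, with nyo at 0 in regulator-rich nuclei. The part of these markers was not tested.

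Over all 318 nuclei and 5740 genes with at least 50 UMIs, the genes most like the luminal sum by Pearson r of log levels were nahoda (0.441), Clect27 (0.433), CG33978 (0.381), CG9411 (0.378), dpy (0.371), CG32694 (0.361), CG8860 (0.354), ELOVL (0.351), obst-E (0.348) and Cht6 (0.345). Those most like the regulator sum were SoxN (0.442), akirin, Myo10A, ed, mira, Ggamma1, CG7675, grh (0.332), ct and Ubr3. SoxN and mira act in neural progenitors and grh acts in epithelia, but these roles are not exclusive. Over the deeper nuclei r was 0.441 for SoxN, 0.286 for mira, 0.475 for grh and 0.499 for ed. That sum is dominated by vvl, and likeness to vvl alone was not computed. The r between the luminal sum and the regulator sum themselves was 0.286 over all nuclei and 0.456 over the deeper ones. Between the luminal sum and the sum of trh, btl and dysf it was 0.159 and 0.214, and between the luminal sum and the cuticle sum 0.406 and 0.449. Of the 3 sums, cuticle had the highest r over all nuclei, while over the deeper nuclei the regulator sum did, at 0.456 beside 0.449. The cuticle sum held 22305 UMIs, the regulator sum 1793 UMIs and the sum of trh, btl and dysf 146 UMIs. The part of these unlike counts in r was not tested, so the order of the sums could not be read.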

How the data were processed

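The deposited matrix holds raw UMI counts of the authors, 1 whole number for each gene in each nucleus, with no scaling. The build was dm3, per the submitters' processing notes. Aligner, counter and barcode filters: not given in the sources used here. All 318 nuclei were kept, including 8 that Scrublet called doublets. The members were listed by name with no rule on their values, but they and the lists were chosen with earlier results of these data known. CPM of summed UMIs was computed with numpy 2.4.6, pandas 2.3.3 and scipy 1.17.1 in python 3.11.15, with ratios taken without an added constant and counts of genes past 2-fold with CPM + 10 over genes with at least 20 UMIs. Clustering used scanpy 1.11.5 and igraph 0.11.9: 2000 variable genes, 20 principal components, 10 neighbours, Leiden resolution 1.0, seed 0. Clusters were named by the marker list with most members over 2-fold higher (at least 5 UMIs each), given at least 3 such members. A tie between lists left a cluster unnamed. A shallow cluster with none of these markers among its leading genes also lost its name. A fat body name was withheld from 1 cluster because of its leading genes. The calculation of ratios and intervals was checked on simulated Poisson counts. These had no variation between nuclei, so the check does not cover sets led by single nuclei.

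Named genes were the members, the other tracheal genes, the 4 cuticle genes with the most UMIs, the 10 genes most like each sum, and the 5 leading genes of the clusters highest in each sum; cluster 9 and the comparisons of the exclusive sets were added after values were seen. Mega, hnt and dys were found as pck, peb and dysf. No reference of build dm3 was used, so no coordinates or sequences are given.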

Additional observations from a re-analysis of the deposited data

How the results depend on the processing

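No paired analysis was possible because there is 1 RNA library. The luminal sum in regulator-rich nuclei (ratio 2.67) was 1.83 thinned to 1000 UMIs, 1.80 with each nucleus weighed the same, 1.84 without the deepest nucleus of each side, 2.16 with a limit of 5 times the library share, 4.30 in nuclei with at least 3000 UMIs and 1.81 without vvl and knrl; pio there was 0.866 at the limit of 5 times. The regulators in luminal-rich nuclei (1.92) were 2.35 at that limit and 2.70 without cuticle-rich nuclei, a choice made after seeing the data. Thinned, trh, btl and dysf there were 0.875, from 1 UMI against 17 UMIs, and btl had 0 UMIs against 2. The luminal sum in cuticle-rich nuclei (2.47) was 3.43 thinned, 4.17 with equal weights, 3.40 without the deepest nuclei and 4.09 at the limit of 5 times, where dysf had 0 UMIs. Leaving luminal-rich nuclei out of that set gave 1.26, with serp at 0.942, a fall that the choice itself fixes, since the nuclei are removed by their luminal level. The member level (1777 CPM) was 1900 CPM thinned. Pairs over 2-fold (8 of 81) were 5 at 2 or more UMIs and 18 of 72 thinned. Clusters with the luminal sum over 2-fold (1) were 2 at resolution 1.5 and 2 with 10 principal components; their number changed with these settings, and with seed 1 the number stayed at 10 but names and membership changed, so cluster values hold for the clustering used. With CPM + 50, 210, 274 and 199 genes were over 2-fold higher in regulator-rich, luminal-rich and cuticle-rich nuclei, against 662, 518 and 354. The cause of these shifts was not tested. Depth limits btl and dysf most.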
